A study of Homo sapiens with 6 samples.

Results

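The genes of cholesterol synthesis and sterol sensing examined here were 30 rows of the deposited gene count table, out of 58735, taken wherever the table's gene name equalled one of 30 chosen symbols. The RNA came from SW1990, an established line of pancreatic ductal adenocarcinoma cells, in 3 libraries of treated cells (EPZ1 to EPZ3) and 3 libraries of control cells (NC1 to NC3). Treated cells were given 5 µM EPZ-5676, a small-molecule inhibitor of DOT1L, an enzyme that methylates histone H3 along transcribed genes. The controls are called untreated in the sample characteristics, while the treatment protocol gives them the same volume of the solvent DMSO. The sources used here do not give the length of the treatment. All libraries come from 1 cell line, and the labels do not say whether replicates were separate cultures, so p-values cover only the spread among these libraries, which may be technical in origin. The series asked which transcripts change under DOT1L inhibition.

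Libraries held 33970420 to 39749648 reads assigned to genes. EPZ1 lay apart from the other treated libraries on the second principal component of the 500 most variable genes, at 17.8, against -18.9 and -14.1 for EPZ2 and EPZ3 and 3.42 to 6.12 for the controls. Of 6 epithelial markers, KRT8 and KRT18 were at 1142 to 3974 CPM (read counts scaled to a common library size), MUC1 was at 22.7 to 40.8 CPM, EPCAM was at 0.656 to 2.59 CPM and KRT19 was at 0.202 to 0.744 CPM. The epithelial cadherin gene CDH1 had 0 reads in every library, a count that allows up to 0.0965 CPM in the shallowest for counting error alone. Whether the counting step missed its reads was not tested. The epithelial markers summed to 4514 to 5749 CPM in EPZ libraries and to 3613 to 4157 CPM in NC libraries, nearly all of it KRT8 and KRT18. EPCAM went the other way, at 0.656 to 1.365 CPM in EPZ libraries and 1.431 to 2.59 CPM in NC libraries. MUC1 and KRT19 had overlapping groups. NC2 held 244 reads of the 3 immune markers PTPRC, LYZ and CD3E, and the other libraries held 0 to 8. The 3 fibroblast markers summed to 65.1 to 75.0 CPM in EPZ libraries and 43.5 to 57.2 CPM in NC libraries, nearly all of it COL1A1 and PDGFRB. The part of these differences in the results was not tested. In bulk RNA, fewer cells of a kind cannot be told apart from less RNA per cell.

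Cells build cholesterol from acetyl-CoA through mevalonate, isoprenoid diphosphates, squalene and lanosterol. The transcription factors SREBP1 and SREBP2 switch on the genes of this route. When membranes of the endoplasmic reticulum are rich in sterol, INSIG proteins hold the SREBP escort protein SCAP there. When sterol runs low, SCAP carries the SREBPs to the Golgi, where proteases release their active part. The liver X receptors (LXRs) respond in the other direction, since oxidised sterols activate them and their targets limit sterol uptake and promote its export. Tumour cells also use the branches of the pathway that supply lipid anchors for signalling proteins.

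Transcripts from separate steps of the route were less abundant in EPZ-treated cells, while other genes between them were higher or not called. The lower ones included the mevalonate branch synthase HMGCS1, the squalene oxidising enzyme SQLE and the methylsterol oxidase MSMO1, each near -1 on the log2 scale. The isomerase gene IDI1, between HMGCS1 and SQLE, was lower as well, at -0.79. INSIG1, whose protein holds SCAP in place, was also lower. Transcripts of the escort protein gene SCAP, of the kinase gene PMVK and of NR1H2, which encodes an LXR, were more abundant. Of the 30 genes, 8 were lower and 5 higher in EPZ libraries at a Benjamini-Hochberg adjusted p under 0.05 (quasi-likelihood test in edgeR, adjusted over 15496 genes). That is 26.7% lower and 16.7% higher, against 18.7% lower and 15.0% higher among all genes tested. Their median log2 fold change was -0.08, beside -0.05 for all genes tested. The share of higher calls was thus near the background. Without EPZ1 or without NC1, 8 of the genes were lower and 3 higher. Calls among all genes tested also fell, from 2899 lower and 2326 higher of 15496. They numbered 1884 lower and 1350 higher of 16011 without EPZ1, and 1753 lower and 1684 higher of 15997 without NC1.

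The fold changes of these genes followed the base composition of their transcripts, as they did across the transcriptome. Over the 30 genes, the log2 fold change and the GC content of the longest transcript had a Pearson correlation of 0.843 and a Spearman correlation of 0.835. Over 15487 genes tested, these were 0.587 and 0.661. These are descriptions across genes, which share the same 6 libraries. The 8 lower genes had a median GC content of 40.6% and the 5 higher genes one of 59.5%, around a median of 49.4% for all genes tested. Among 10 bins of genes by GC content, the bin with the lowest had a median log2 fold change of -0.58 and the bin with the highest one of 0.43. A second fit therefore removed smooth trends on GC content and transcript length from each library, and is called the correction below. It takes out an effect of treatment that tracks GC content along with any technical trend, and the origin of the trend was not tested. After the correction, 8 of the 30 genes were lower and 1 higher, or 26.7% and 3.33%, against 5.57% lower and 5.40% higher among all genes tested. The correlation over the 30 genes was then 0.285 (Spearman 0.298). Higher calls numbered 2 without NC1, where PMVK joined NPC2 at 0.36 (adjusted p = 0.0143).

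**Figure D1:**
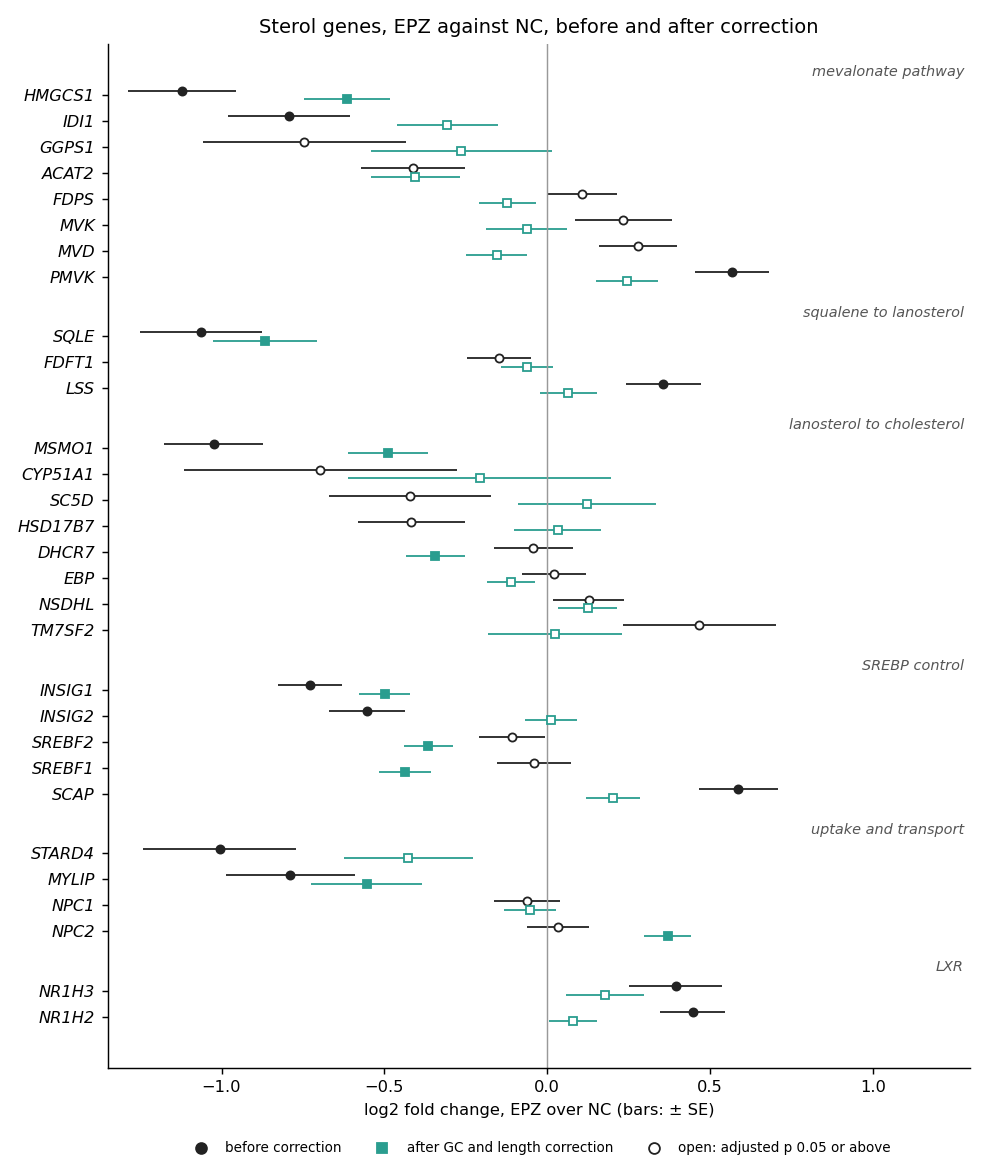
Log2 fold changes (EPZ over NC, ± SE, n = 3 libraries each) of the 30 genes, grouped by role, before the correction (circles) and after it (squares), with filled marks for an adjusted p under 0.05. HMGCS1, SQLE, MSMO1, INSIG1 and MYLIP lay left of 0 and were filled in both fits.

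**Figure D2:**
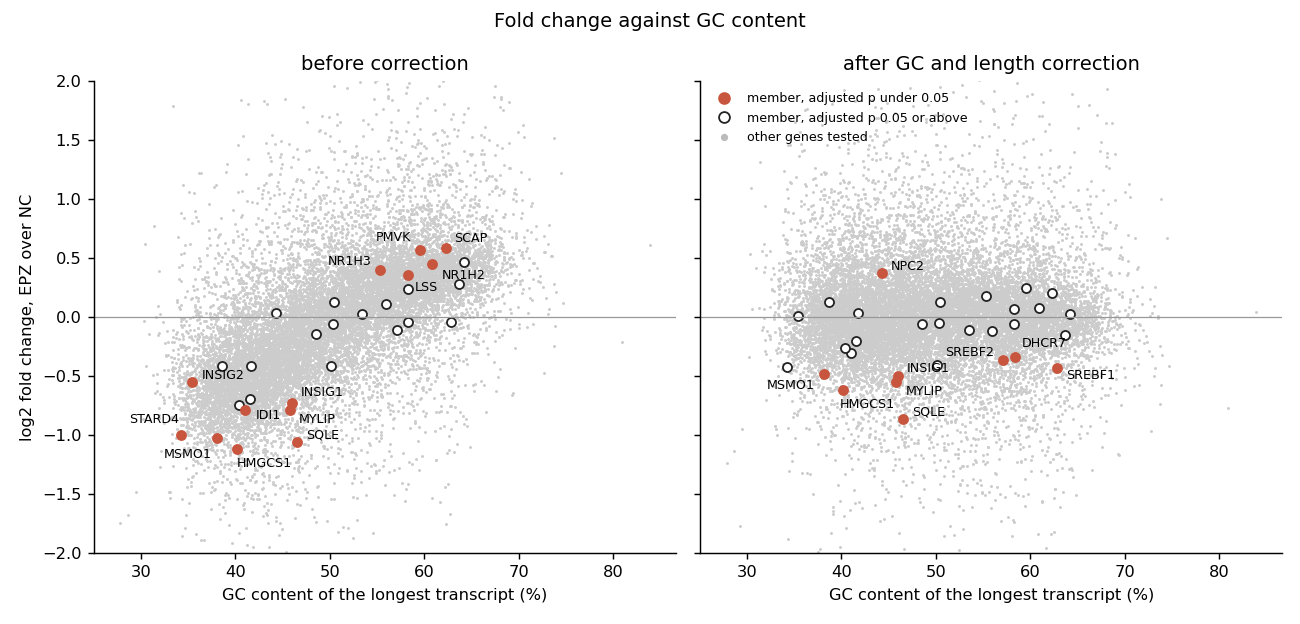
Log2 fold change (EPZ over NC) against the GC content of the longest transcript in percent, for the 30 genes (large marks) and the other genes tested (grey), before the correction on the left and after it on the right. The grey cloud and the sterol genes sloped upward before the correction (r = 0.843 over the 30 genes) and much less after it (0.285). Beyond the vertical axis, at 2 in either direction, lay 97 genes before and 67 after.

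The calls fell into 3 sets. HMGCS1, SQLE, MSMO1, INSIG1 and MYLIP were lower in both fits. INSIG2, STARD4 and IDI1 were lower, and PMVK, SCAP, NR1H2, LSS and NR1H3 higher, before the correction alone. SREBF1, SREBF2 and DHCR7 were lower and NPC2 higher after the correction alone. HMGCS1, SQLE, MSMO1 and INSIG1 kept their calls under each of 14 alternative settings without a GC or length correction and each of 9 with a GC correction.

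Promoters are printed for 3 of the genes that were lower in both fits (HMGCS1, MSMO1 and INSIG1) and for SREBF2, which encodes the factor that drives sterol synthesis genes. The sequences are RefSeq's for GRCh38.p14, 300 bases from 250 before to 50 after the start site, 5′ to 3′ on the gene's strand. Capitals mark 3 motifs on either strand: TCACNCCAC, the core of a sterol regulatory element (reverse complement GTGGNGTGA), CCAAT, the box bound by NF-Y (ATTGG), and GGGCGG, the box bound by Sp1 (CCGCCC). Runs of capitals longer than 1 motif are overlapping matches. The windows lie at chr5:43313363-43313662 on the minus strand (HMGCS1), chr4:165327419-165327718 on the plus strand (MSMO1), chr7:155297628-155297927 on the plus strand (INSIG1) and chr22:41832855-41833154 on the plus strand (SREBF2).
HMGCS1: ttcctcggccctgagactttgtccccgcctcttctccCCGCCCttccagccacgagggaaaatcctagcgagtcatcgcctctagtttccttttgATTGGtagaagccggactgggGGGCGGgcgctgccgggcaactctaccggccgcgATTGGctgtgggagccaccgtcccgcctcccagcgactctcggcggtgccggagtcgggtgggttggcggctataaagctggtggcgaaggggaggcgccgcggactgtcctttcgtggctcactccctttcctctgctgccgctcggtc
MSMO1: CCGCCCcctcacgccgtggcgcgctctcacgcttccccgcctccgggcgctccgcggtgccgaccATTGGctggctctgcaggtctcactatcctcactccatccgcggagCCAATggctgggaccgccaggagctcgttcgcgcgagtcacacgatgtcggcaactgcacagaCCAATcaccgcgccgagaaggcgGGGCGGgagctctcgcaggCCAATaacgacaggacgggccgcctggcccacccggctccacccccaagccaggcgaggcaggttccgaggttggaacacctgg
INSIG1: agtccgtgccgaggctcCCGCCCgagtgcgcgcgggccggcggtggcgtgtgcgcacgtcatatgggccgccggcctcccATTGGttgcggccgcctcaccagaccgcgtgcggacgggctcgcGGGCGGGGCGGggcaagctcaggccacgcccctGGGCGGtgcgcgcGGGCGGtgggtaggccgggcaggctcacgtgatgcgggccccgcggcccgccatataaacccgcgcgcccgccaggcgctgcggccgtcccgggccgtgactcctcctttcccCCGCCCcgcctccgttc
SREBF2: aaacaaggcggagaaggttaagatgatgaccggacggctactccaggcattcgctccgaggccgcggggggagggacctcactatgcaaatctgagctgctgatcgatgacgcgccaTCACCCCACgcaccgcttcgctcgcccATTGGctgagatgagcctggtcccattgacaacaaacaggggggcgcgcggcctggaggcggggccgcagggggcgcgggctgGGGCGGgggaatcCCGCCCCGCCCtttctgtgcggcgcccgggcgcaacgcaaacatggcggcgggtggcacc

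HMGCS1 held 2 CCAAT and 2 GGGCGG matches, MSMO1 held 4 and 2, INSIG1 held 1 and 6, and SREBF2 held 1 and 3. The sterol element core was matched only in the SREBF2 window, as TCACCCCAC starting 133 bases before the start site. Promoters were found for 27 of the 30 genes, 39 windows in all. CCAAT was matched in 56.4% of these windows, against 34.6% of all 35116 promoters in the table. GGGCGG was matched in 87.2%, against 45.0% of all promoters and 66.3% of those of coding genes tested here. TCACNCCAC was matched in 1 of the 39, against 1.13% of all promoters. A match is a string of letters and not a measured site. Genes that were lower, higher and not called all held CCAAT matches, for example HMGCS1, LSS and MVK.

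In the mevalonate branch, 2 of 8 genes were lower (25.0%, against 18.7% of all genes tested) and 1 higher (12.5%, against 15.0%) before the correction. After it, 1 was lower (12.5%, against 5.57%) and 0 higher (against 5.40%). HMGCS1 (ENSG00000112972, chr5:43289395-43313512), which condenses acetyl-CoA with acetoacetyl-CoA, was at 11.7, 15.6 and 11.4 CPM in EPZ1 to EPZ3, against 33.4, 24.8 and 25.8 CPM in NC1 to NC3. The groups did not overlap, and NC1 was the highest library. HMGCS1 averaged 12.9 ± 2.38 CPM in EPZ libraries and 28.0 ± 4.69 CPM in NC libraries (mean ± SD over 3 libraries each). This was -1.12 ± 0.17 as a log2 fold change with its SE (adjusted p = 0.000113). The corrected value was -0.62 ± 0.13 (adjusted p = 0.00393). IDI1 (ENSG00000067064, chr10:1039152-1049170), the isomerase that makes the isoprenoid starter unit, was at 8.53, 7.92 and 9.41 CPM in EPZ libraries, against 19.1, 13.0 and 12.7 CPM in NC libraries. All treated libraries were below all controls, with NC1 well above the other controls. Its log2 fold change of -0.79 ± 0.19 (adjusted p = 0.00324) was -0.31 after the correction (adjusted p = 0.230).

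PMVK (ENSG00000163344, chr1:154924734-154936991), the kinase that adds the second phosphate to mevalonate, was at 90.2, 74.0 and 77.9 CPM in EPZ libraries, against 59.1, 56.0 and 48.2 CPM in NC libraries. The groups did not overlap, and EPZ1 was the highest library. PMVK rose by 0.57 ± 0.11 on the log2 scale (adjusted p = 0.00114). After the correction this was 0.24 (adjusted p = 0.109), with the groups overlapping. ACAT2, the thiolase that supplies acetoacetyl-CoA, did not pass: it was at 11.7, 14.1 and 12.1 CPM in EPZ libraries, against 18.6, 16.5 and 15.3 CPM in NC libraries. No treated library reached the controls, and its value of -0.41 ± 0.16 stayed at -0.41 with the correction (adjusted p = 0.0515 without it and 0.0617 with it). ACAT2 overlaps the chaperonin gene TCP1 on the opposite strand over 558 bases. TCP1 averaged 6414 reads per library and ACAT2 537. The libraries mark strand, but the sources used here do not say whether counting used it.

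The other mevalonate genes did not pass in either fit. GGPS1, which makes geranylgeranyl diphosphate, had a log2 fold change of -0.75 ± 0.31 on levels of 1.38 to 3.51 CPM in EPZ libraries and 3.44 to 5.36 CPM in NC libraries. It shares 15963 bases on the same strand with TBCE, so its count is uncertain. The kinase gene MVK was at 0.23 ± 0.15, the decarboxylase gene MVD at 0.28 ± 0.12 and the farnesyl diphosphate synthase gene FDPS, which has pseudogene copies, at 0.11 ± 0.11. These 3 GC-rich transcripts were at -0.06, -0.16 and -0.12 after the correction.

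Of the 3 genes that lead to lanosterol, SQLE was lower in both fits. The share of lower genes was 33.3% in each fit, against 18.7% before the correction and 5.57% after it among all genes tested. SQLE (ENSG00000104549, chr8:124998497-125022283), whose product oxidises squalene at a rate-limiting step, was at 7.31, 13.3 and 12.1 CPM in EPZ libraries, against 25.0, 20.3 and 23.4 CPM in NC libraries. Every treated library was below every control, and EPZ1 was the lowest. It averaged 10.9 ± 3.19 CPM in EPZ libraries and 22.9 ± 2.38 CPM in NC libraries, or -1.06 ± 0.19 on the log2 scale (adjusted p = 0.000452). The corrected value, -0.87 ± 0.16 (adjusted p = 0.00114), was the largest in size among the 30 genes. Without EPZ1 it was -0.84 before the correction and -0.68 after it, with adjusted p = 0.003 and 0.00657.

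LSS (ENSG00000160285, chr21:46188141-46228824), which folds oxidised squalene into lanosterol, was at 63.9, 58.8 and 54.8 CPM in EPZ libraries, against 40.8, 47.9 and 49.98 CPM in NC libraries. Every treated library exceeded every control. LSS rose by 0.36 ± 0.12 on the log2 scale (adjusted p = 0.0217), a call lost after the correction (0.07, adjusted p = 0.714) and without NC1, EPZ1 or EPZ2 (adjusted p = 0.0744, 0.108 and 0.0554). The squalene synthase gene FDFT1, between the isoprenoids and squalene, was at 148 to 169 CPM in EPZ libraries and 166 to 188 CPM in NC libraries. Its log2 fold change of -0.15 ± 0.10 did not pass (adjusted p = 0.267). The 3 neighbouring steps therefore had values of -0.15, -1.06 and 0.36 before the correction, and -0.06, -0.87 and 0.07 after it.

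Between lanosterol and cholesterol, MSMO1 was the 1 gene of 8 called before the correction. The share of lower genes was 12.5%, against 18.7% of all genes tested, and 25.0% after the correction, against 5.57%. MSMO1 (ENSG00000052802, chr4:165327623-165343160), the oxidase that begins removal of a pair of methyl groups, was at 10.5, 12.4 and 12.2 CPM in EPZ libraries, against 25.2, 22.1 and 24.1 CPM in NC libraries. The libraries of each group lay close together and far from the other group. MSMO1 averaged 11.7 ± 1.02 CPM in EPZ libraries and 23.8 ± 1.55 CPM in NC libraries, or -1.02 ± 0.15 on the log2 scale (adjusted p = 0.000113). With a GC content of 38.1%, it was at -0.49 ± 0.12 after the correction (adjusted p = 0.0124).

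DHCR7 (ENSG00000172893, chr11:71428193-71452868), the reductase that makes cholesterol from its last precursor, was at 66.1, 59.6 and 53.7 CPM in EPZ libraries, against 51.9, 67.6 and 65.2 CPM in NC libraries. These groups overlapped, at -0.04 ± 0.12 on the log2 scale (adjusted p = 0.820). Set against transcripts of like GC content (58.3%), it was lower, at -0.34 ± 0.09 (adjusted p = 0.0184), and the corrected groups did not overlap. That call was lost without NC2, NC3 or EPZ3 (adjusted p = 0.0547, 0.0877 and 0.131).

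The other 6 genes of this stretch did not pass in either fit. The sterol dehydrogenase gene HSD17B7, at 11.2 to 13.3 CPM in EPZ libraries and 14.1 to 18.2 CPM in NC libraries, had non-overlapping groups, a log2 fold change of -0.42 ± 0.17 (adjusted p = 0.0556) and a corrected value of 0.03. Its count may be shared with a pseudogene. The desaturase gene SC5D (-0.42 ± 0.25), the dehydrogenase gene NSDHL (0.13 ± 0.11), the isomerase gene EBP (0.02 ± 0.10) and the reductase gene TM7SF2 (0.47 ± 0.24) had overlapping groups. So did the lanosterol demethylase gene CYP51A1, which was listed at 0.582 to 2.02 CPM in EPZ libraries and 1.49 to 3.34 CPM in NC libraries. CYP51A1 shares 22645 bases on the same strand with AC000120.2, which had 0 reads, and has pseudogene copies, so its level is uncertain.

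Among the 5 genes that control SREBPs, the sensors moved one way and the escort the other before the correction. Of the 5, 2 were lower and 1 higher, against 18.7% and 15.0% of all genes tested. After the correction 3 were lower and 0 higher, against 5.57% and 5.40% of all genes tested. INSIG1 (ENSG00000186480, chr7:155297776-155310235), which retains SCAP and is itself an SREBP target, was at 71.4, 68.9 and 71.5 CPM in EPZ libraries, against 122.6, 113.5 and 114.6 CPM in NC libraries. The spread within each group was far smaller than the gap between the groups. INSIG1 averaged 70.6 ± 1.49 CPM in EPZ libraries and 116.9 ± 4.97 CPM in NC libraries, or -0.73 ± 0.10 on the log2 scale (adjusted p = 5.89e-05), the smallest adjusted p of the 30 genes. It was -0.50 ± 0.08 after the correction (adjusted p = 0.000265) and ran from -0.74 to -0.68 over the 14 settings without a GC or length correction.

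INSIG2 (ENSG00000125629, chr2:118088452-118110997), the paralogue of INSIG1, was at 49.6, 58.1 and 59.1 CPM in EPZ libraries, against 91.7, 71.6 and 81.4 CPM in NC libraries. The groups did not overlap, and INSIG2 fell by 0.55 ± 0.12 on the log2 scale (adjusted p = 0.00146). Its transcript has a GC content of 35.4%, and after the correction the value was 0.011 ± 0.08 (adjusted p = 0.953). SCAP (ENSG00000114650, chr3:47413694-47477126), the escort, was at 191, 148 and 178 CPM in EPZ libraries, against 94.0, 129 and 121 CPM in NC libraries. SCAP rose by 0.59 ± 0.12 on the log2 scale (adjusted p = 0.00133). With a GC content of 62.3% it was at 0.20 ± 0.08 after the correction (adjusted p = 0.133), with overlapping groups.

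The SREBP genes themselves passed the test after the correction alone. SREBF1 (ENSG00000072310, chr17:17810399-17837002), whose products favour fatty acid genes, was at 99.2, 85.2 and 97.7 CPM in EPZ libraries, against 81.8, 109 and 99.0 CPM in NC libraries. SREBF2 (ENSG00000198911, chr22:41833079-41907308) was at 116, 126 and 125 CPM in EPZ libraries, against 120, 133 and 143 CPM in NC libraries. Both had overlapping groups, with log2 fold changes of -0.04 ± 0.11 and -0.11 ± 0.10 (adjusted p = 0.819 and 0.434). The GC content bins that hold SREBF1 and SREBF2 had median log2 fold changes of 0.43 and 0.26, and after the correction SREBF1 was at -0.44 ± 0.08 and SREBF2 at -0.37 ± 0.08, both lower (adjusted p = 0.00111 and 0.00306). The corrected groups did not overlap for either gene. Both calls were made in all 9 settings with a GC correction and in 0 of the 14 without a GC or length correction.

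**Figure D3:**
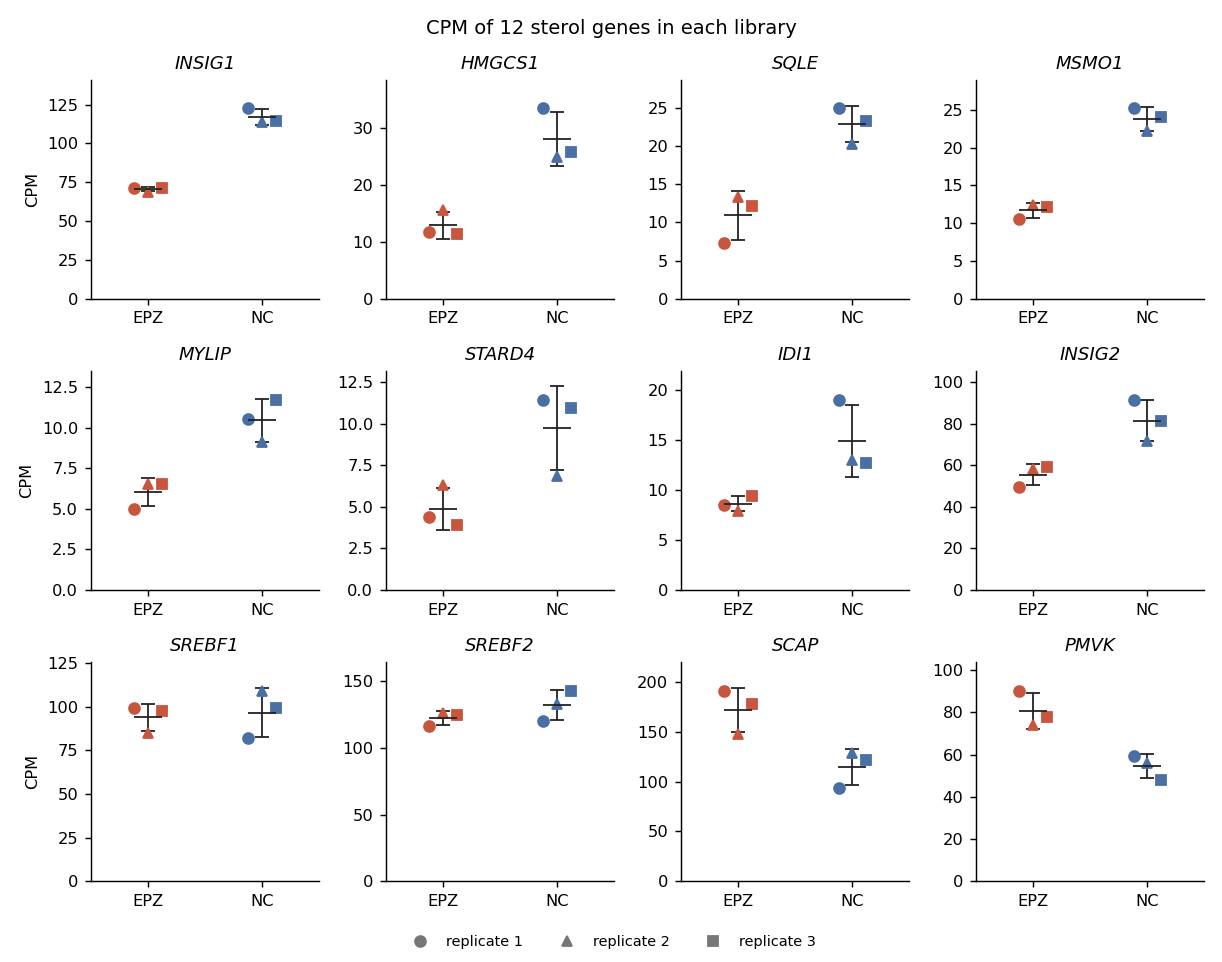
CPM of 12 of the genes in each library, EPZ left of NC, with the replicate number as the symbol and the mean ± SD as bars (n = 3 each). INSIG1 and MSMO1 had tight and well separated groups, STARD4 and IDI1 had spread-out controls, and the groups overlapped for SREBF1 and SREBF2.

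Of the 4 genes of sterol uptake and transport, STARD4 and MYLIP were lower before the correction and 0 were higher. Among all genes tested, 18.7% were lower and 15.0% higher. After the correction 1 of the 4 was lower and 1 higher, against 5.57% and 5.40% of all genes tested. With 4 genes, 1 call moves these shares widely. STARD4 (ENSG00000164211, chr5:111496033-111512590), a carrier that moves sterol between membranes, was at 4.41, 6.30 and 3.92 CPM in EPZ libraries, against 11.5, 6.87 and 10.99 CPM in NC libraries. The highest treated library, EPZ2, came close to the lowest control, NC2. Its log2 fold change of -1.01 ± 0.23 (adjusted p = 0.00305) was -0.43 ± 0.20 after the correction (adjusted p = 0.185), at the lowest GC content of the 30 genes (34.2%).

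MYLIP (ENSG00000007944, chr6:16129125-16148248) encodes a ubiquitin ligase that LXRs induce and that marks lipoprotein receptors for degradation. It was at 5.02, 6.55 and 6.55 CPM in EPZ libraries, against 10.5, 9.10 and 11.7 CPM in NC libraries. Treated libraries all lay under the controls. MYLIP fell by 0.79 ± 0.20 on the log2 scale (adjusted p = 0.00475), and by 0.55 ± 0.17 after the correction (adjusted p = 0.0382). With the correction, that call was lost without NC1, NC3, EPZ1, EPZ2 or EPZ3 (adjusted p = 0.0722, 0.164, 0.136, 0.0643 and 0.0638) and held without NC2 (0.0403).

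NPC1 and NPC2, which pass cholesterol out of lysosomes, did not pass before the correction. NPC2 (ENSG00000119655, chr14:74476192-74494177) was at 305, 307 and 292 CPM in EPZ libraries, against 306, 293 and 285 CPM in NC libraries. Its groups overlapped, at 0.03 ± 0.09 on the log2 scale (adjusted p = 0.820). The bin of genes with its GC content (44.3%) had a median of -0.30, and after the correction NPC2 was higher, at 0.37 ± 0.07 (adjusted p = 0.0021), the only gene of the 30 called higher in that fit. NPC1 was at 79.1 to 82.5 CPM in EPZ libraries and 78.8 to 88.5 CPM in NC libraries, with a log2 fold change of -0.06 ± 0.10 (-0.05 after the correction).

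Both LXR genes were higher before the correction, as were 15.0% of all genes tested, and neither passed after it. NR1H2 (ENSG00000131408, chr19:50329653-50382982), the widely expressed LXR, was at 179, 171 and 171 CPM in EPZ libraries, against 125, 139 and 119 CPM in NC libraries. The groups did not overlap, and NR1H2 rose by 0.45 ± 0.10 on the log2 scale (adjusted p = 0.00219). The corrected value was 0.08 (adjusted p = 0.570). NR1H3 (ENSG00000025434, chr11:47248300-47269032), the LXR best known in liver and macrophages, was at 59.6, 43.3 and 39.8 CPM in EPZ libraries, against 35.9, 40.7 and 32.0 CPM in NC libraries. The groups overlapped, with EPZ1 far above the rest. Its log2 fold change of 0.39 ± 0.14 (adjusted p = 0.0385) was 0.18 after the correction (adjusted p = 0.390), and without EPZ1 it was 0.20 before the correction (adjusted p = 0.333). The call was also lost without NC1 or NC3 (adjusted p = 0.0764 and 0.172) and with limma-voom (0.0537).

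Levels of different genes were compared per length, as CPM per kilobase of the table's gene length. NPC2 (110 ± 3.02 in EPZ libraries and 107 ± 3.92 in NC libraries), EBP (87.6 ± 6.72 in EPZ and 86.3 ± 5.53 in NC), PMVK (63.0 ± 6.61 in EPZ and 42.5 ± 4.42 in NC) and NR1H2 (46.4 ± 1.19 in EPZ and 34.0 ± 2.81 in NC) led in both groups, although in NC libraries NR1H2 lay within the spread of FDFT1 and INSIG1. CYP51A1 was last in both (0.389 ± 0.206 in EPZ and 0.626 ± 0.272 in NC). INSIG1 ranked 9 in EPZ libraries (19.3 ± 0.408) and 6 in NC libraries (32.0 ± 1.36), where its neighbour FDFT1 (33.8 ± 2.12) lay within the spread. INSIG2 ranked 13 in EPZ libraries (14.1 ± 1.32) and 8 in NC libraries (20.7 ± 2.54). SCAP ranked 7 in EPZ libraries (26.8 ± 3.44) and 10 in NC libraries (17.8 ± 2.85). The 3 most reduced enzymes were in the lower part of the order. MSMO1 was at 4.05 ± 0.353 in EPZ libraries and 8.23 ± 0.536 in NC libraries, HMGCS1 at 2.74 ± 0.506 in EPZ and 5.96 ± 0.997 in NC, and SQLE at 2.54 ± 0.742 in EPZ and 5.31 ± 0.552 in NC. Neighbours such as HMGCS1 and SQLE did not differ beyond their spread in either group.

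**Figure D4:**
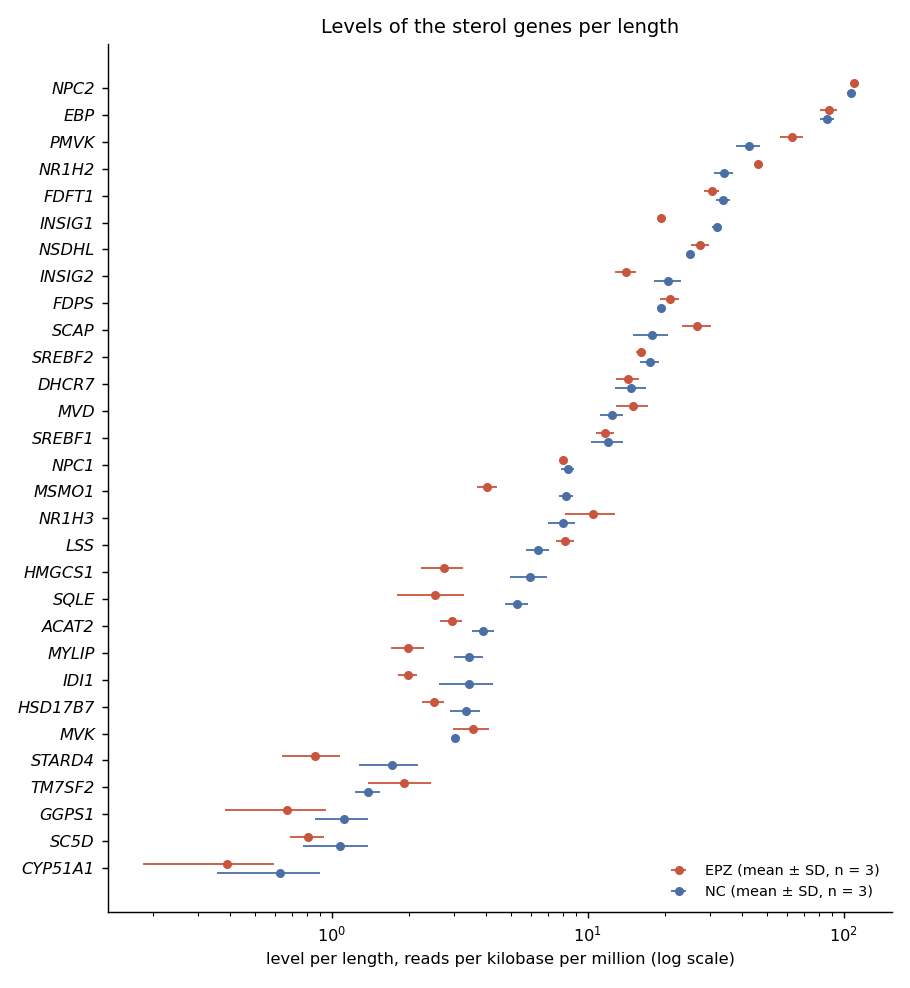
Level per length of the 30 genes (CPM per kilobase of gene, log axis) as mean ± SD over 3 EPZ libraries (red) and 3 NC libraries (blue), ordered by the NC mean. NPC2 and EBP led both groups and CYP51A1 was last, while MSMO1, HMGCS1 and SQLE showed the widest gaps together with STARD4.

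Within the groups, the same libraries were often extreme among the called genes. Of the 8 genes that were lower before the correction, NC1 was the highest control for 7 and NC2 the lowest control for 7, while EPZ1 was the lowest treated library for 4. EPZ1 was the highest treated library for all 5 higher genes. These counts are a description, since the calls rest on the same library values. A like count over all called genes was not made. Over all 30 genes the split was more even, with NC1 the highest control for 16, NC2 for 9 and NC3 for 5, and NC1 the lowest control for 7, NC2 for 11 and NC3 for 12. Without NC2, the library with the immune reads, 10 of the 30 genes were lower and 6 higher. Calls among all genes tested rose as well, to 3167 lower and 2780 higher of 15996, from 2899 and 2326 of 15496.

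Other genes around the pathway were taken from 4 lists. Genes that process SREBPs or degrade sterol enzymes, with their transport coats, had 12 of 20 lower (60%, against 18.7% of all genes tested) and 1 higher (5.0%, against 15.0%). After the correction 1 was lower (5.0%, against 5.57%) and 0 higher (against 5.40%), so the corrected share of lower genes was at the background. The median log2 fold change was -0.48, and -0.04 after it. PGRMC1, a sterol-binding membrane protein, was at 64.3 ± 6.57 CPM in EPZ libraries and 100.9 ± 4.12 CPM in NC libraries and was the gene lower in both fits (-0.65 ± 0.11, adjusted p = 0.00025; corrected value -0.33, adjusted p = 0.0126). The coat genes SAR1B (-0.88 ± 0.15) and SEC23A (-0.59 ± 0.13) and the membrane scaffold gene ERLIN1 (-0.48 ± 0.11) were lower before the correction alone. The most expressed genes not called were the coat gene SEC24C (0.24 ± 0.11) and the SREBP protease gene MBTPS1 (-0.17 ± 0.10). Higher calls in the list numbered 3 without NC2 and 0 without NC1, NC3, EPZ1 or EPZ2. Among all genes tested they were 2780 without NC2 and 1684, 1592, 1350 and 2005 without NC1, NC3, EPZ1 and EPZ2, from 2326. After the correction, lower calls in the list numbered 0 without EPZ1 or EPZ3 and 2 without NC3. Among all genes these were 512, 540 and 705, from 863.

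Genes of sterol transport and storage had 10 of 22 lower (45.5%, against 18.7% of all genes) and 3 higher (13.6%, against 15.0%, near the background). After the correction 3 were lower (13.6%, against 5.57%) and 0 higher (against 5.40%). The medians were -0.37 before it and -0.13 after it. GRAMD1B, which carries plasma membrane cholesterol to the endoplasmic reticulum, was at 126 ± 6.45 CPM in EPZ libraries and 182 ± 24.2 CPM in NC libraries. GRAMD1B fell by 0.54 ± 0.11 on the log2 scale (adjusted p = 0.00105), and by 0.52 with GC and length trends removed (adjusted p = 0.000116). LIMA1, an actin-binding protein gene, was lower in both fits (-0.93 ± 0.16, and -0.42 after the correction, adjusted p = 0.0226), while the lipid transfer gene OSBPL8 (-0.86 ± 0.19) and the caveolin gene CAV1 (-0.39 ± 0.10) were lower before it alone. The lipoprotein receptor gene SCARB1 was at -0.11 ± 0.11 before the correction and lower after it (-0.29, adjusted p = 0.0163), and OSBPL5 (0.27 ± 0.10, adjusted p = 0.0514) did not pass. Lower calls numbered 6 without NC1, NC3 or EPZ1, 5 without EPZ3 and 11 without NC2 or EPZ2, and higher calls 1 without EPZ1. Lower calls among all genes tested were 1753, 1973, 1884 and 2315 without NC1, NC3, EPZ1 and EPZ3, from 2899. They were 3167 and 2543 without NC2 and EPZ2. Higher calls among all genes were 1350 without EPZ1, from 2326. After the correction, lower calls numbered 1 without EPZ1, beside 512 of all genes, from 863.

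Genes that use isoprenoids, for protein prenylation, dolichol and coenzyme Q, had 8 of 18 lower (44.4%, against 18.7% of all genes) and 3 higher (16.7%, against 15.0%, near the background). After the correction 0 were called in either direction, against 5.57% lower and 5.40% higher of all genes. At an unadjusted p under 0.05, edgeR gave 3 lower and 1 higher, beside 1975 lower and 1822 higher of 15487 genes. The medians were -0.40 before it and -0.08 after it. The prenyl protein protease gene ZMPSTE24 (-0.98 ± 0.18), RABGGTB (-0.85 ± 0.16), a subunit of the enzyme that prenylates Rab proteins, and NUS1 (-0.76 ± 0.15), a subunit of the dolichol synthase, were lower before the correction. RABGGTA (0.69 ± 0.14), the partner subunit of RABGGTB, was higher. Their transcripts differ in GC content, at 61.0% for RABGGTA and 37.3% for RABGGTB, and after the correction they were at 0.31 and -0.28 (adjusted p = 0.0815 and 0.132). ICMT (-0.10 ± 0.10) and DHDDS (0.23 ± 0.13) did not pass. Lower calls numbered 5 without NC3 or EPZ1, and 1 without EPZ3 after the correction. Among all genes tested they were 1973 without NC3 and 1884 without EPZ1, from 2899. Without EPZ3 after the correction they were 540, from 863.

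Fatty acid synthesis genes and LXR targets had 6 of 17 lower (35.3%, against 18.7% of all genes) and 2 higher (11.8%, against 15.0%). After the correction 4 were lower (23.5%, against 5.57%) and 0 higher (against 5.40%). The medians were -0.09 before it and -0.15 after it. The desaturase SCD, which makes monounsaturated fatty acids, was at 302, 360 and 336 CPM in EPZ libraries, against 481, 480 and 598 CPM in NC libraries. SCD was lower in each treated library than in any control. It fell by 0.64 ± 0.11 on the log2 scale (adjusted p = 0.000347), and by 0.47 ± 0.08 after the correction (adjusted p = 0.000479). The desaturase gene FADS1 (-0.55 ± 0.10, and -0.53 after the correction, adjusted p = 0.000119) was also lower in both fits, the elongase gene ELOVL5 (-0.67 ± 0.13) was lower and the acetyl-CoA synthetase gene ACSS2 (0.41 ± 0.10) higher before it alone. FASN (0.29 ± 0.14) and ACLY (-0.04 ± 0.10), the most expressed genes not called, had overlapping groups. After the correction, lower calls numbered 2 without EPZ2, beside 559 of all genes tested, from 863. Higher calls before it numbered 1 without NC3 or EPZ3, beside 1592 and 1756 of all genes tested, from 2326.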

How the data were processed

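The authors deposited a table of raw, whole-number read counts per gene for 6 libraries, with no normalization. Per the labels' protocols, polyadenylated RNA was enriched and dUTP in the second strand marked the strand. The submitters' processing notes name HISAT2 2.2.1 and the builds GRCh38 and hg38. How reads were counted, with which strand setting and annotation, is not given in the sources used. All 58735 rows carried the starts and ends of the GENCODE genes used for GC content and transcript length.

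Counts were tested in edgeR 4.0.16 (R 4.3.3) after filterByExpr (minimum count 10) and TMM scaling, with robust dispersions and a two-sided quasi-likelihood test. P-values were Benjamini-Hochberg adjusted over 15496 genes at a threshold of 0.05. The SE was the log2 fold change divided by the root of F, and CPM used TMM-scaled totals. The correction fitted natural splines (5 degrees of freedom each) on GC content and log length to each library, entered as an offset, for 15487 genes with known properties. Depth was 33970420 to 39749648 reads, with a common dispersion of 0.0301. Limits from a count of 0 (3 reads) cover counting error only. The code was tested on simulated data. Figures used Python 3.11.15 and matplotlib 3.10.9.

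Groups followed the sample titles. Library values are given for members past the threshold, the 4 largest changes, and the SREBP and INSIG genes. Of each other list, the 4 called genes with the smallest p and the 2 most expressed not called were named. Members and lists were chosen with earlier results of these data known. Some genes of the pathway are not reported here. Alternatives were scaling by RLE or upper quartiles, no filter or a minimum count of 30, DESeq2 1.42.0, limma-voom (limma 3.58.1), a replicate block, corrections for GC content, length or both, tests of coding genes alone, and fits without 1 library.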

Additional observations from a re-analysis of the deposited data

How the results depend on the processing

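Over 24 alternatives and 30 genes, 720 values were compared with the report's uncorrected ones. Without a correction, 394 kept direction and call, 8 changed sign without a call in either fit, 9 lost and 9 gained a call, and 0 called values reversed. With one, 131 kept both, 59 changed sign without a call in either fit, and 70 lost and 33 gained a call. Another 7 values, all for INSIG2, changed sign and lost the call. These were 0.011 with GC content and length corrected, 0.019 with GC content alone and 0.012 with the correction and the replicate block. In 4 of the 6 fits with the correction and 1 library left out they were 0.00036 to 0.021. INSIG2 was called in 0 of the 9 settings with a GC correction (adjusted p = 0.92 to 0.999). Without a correction and with 1 library left out it was at -0.62 to -0.45. With the correction, higher calls fell to 1 among the 30 genes and to 0 in each of the 4 other lists, beside 836 of 15487 genes tested. Lower calls fell to 1 for SREBP processing, 3 for sterol transport and 0 for isoprenoid use, beside 863 of all genes tested. The 8 counts for the 30 genes and the lists were equal with GC content alone and with the correction plus the block. Length alone gave 3 higher and 7 lower for SREBP processing, beside 2783 higher and 2226 lower of 15487 genes tested. DESeq2 gave 3 higher there, beside 2811 of 14892 genes. The uncorrected edgeR fit gave 1 higher and 12 lower there, beside 2326 and 2899 of 15496. The cause of these moves was not tested.

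Same-numbered libraries did not deviate together (correlations -0.111, -0.0927 and 0.0466). With 3 libraries in each group this cannot settle whether the numbers pair them, and the labels do not say. With replicate as a block, 3 of the 30 genes were higher and 8 lower, beside 1677 higher and 2219 lower of 15496 genes tested. SREBP processing had 0 higher and sterol transport 6 lower, and LSS and NR1H3 lost their calls (adjusted p = 0.0612 and 0.0666).

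Leaving out 1 library gave 3 to 6 higher and 8 to 10 lower of the 30 genes, and 1 to 2 and 6 to 7 with the correction. Among all genes tested, the same fits gave 1350 to 2780 higher and 1753 to 3167 lower. With the correction they gave 397 to 857 higher and 512 to 815 lower. SREBP processing had 0 to 3 higher and 8 to 12 lower (0 and 0 to 2 corrected), sterol transport 1 to 4 and 5 to 11 (0 and 1 to 3), isoprenoid use 2 to 3 and 5 to 8 (0 and 0 to 1), and lipogenic genes 1 to 3 and 4 to 8 (0 and 2 to 4). Depth limits the weakly expressed genes: CYP51A1, GGPS1 and SC5D, at under 10 CPM, had the largest standard errors (0.42, 0.31 and 0.25).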
